A study of Ovis aries with 30 samples.

Results

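The carnitine shuttle genes on the array were CPT1A, CPT1B and SLC25A20. They were found by gene name, or by symbol or full name in the probe descriptions, and they had 5 probes among the 15008 on the array. In all, 760 different genes could be named, from 1215 probes (8.1%). The samples were fat from the surface of the heart of 30 sheep, each hybridised to its own 1-colour Agilent array. Control fetus (n = 8) and CORT fetus (n = 6) were collected at term, and Control lamb (n = 7) and CORT lamb (n = 9) at 2 weeks of age. The ewes of the CORT fetuses were given cortisol at 1 mg/kg/day and those of the CORT lambs 0.5 mg/kg/day, from gestational day 115, and the ewes of the Control groups were given none. Neither fetuses nor lambs were themselves infused, and the infusion in the lamb study ran only from evening to morning. Because maternal dose differed between the ages, and the submitters' labels caution against setting the exposed groups of the different ages against each other, age and dose cannot be told apart among exposed animals. The study had twins in both lamb treatments, and which lambs shared a ewe is not given in the sources used here, so every test treated lambs as independent.

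Long-chain fatty acids cannot cross the inner mitochondrial membrane as coenzyme A esters. Carnitine palmitoyltransferase 1, on the outer membrane, transfers the acyl group to carnitine, and this step is inhibited by malonyl-CoA. CPT1A is the isoform best known from liver and CPT1B the one best known from muscle and brown fat. SLC25A20, the carnitine-acylcarnitine translocase, carries the acylcarnitine inwards in exchange for carnitine. Brown fat of newborn sheep burns fatty acids to make heat through the uncoupling protein UCP1.

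CPT1A lies on chromosome 21 at 42553789 to 42613314, CPT1B on chromosome 3 at 225815612 to 225823875 and SLC25A20 on chromosome 19 at 51090363 to 51128262, by the RefSeq annotation of ARS-UI_Ramb_v3.0. The probes are printed because the comparison of isoforms rests on their not sharing sequence. The strand is as the scanner files give it, and capitals mark the bases that the 2 probes of the same gene share.
CPT1A A_70_P051281: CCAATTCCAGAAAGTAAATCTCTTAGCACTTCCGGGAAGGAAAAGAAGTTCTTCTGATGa
CPT1A A_70_P051282: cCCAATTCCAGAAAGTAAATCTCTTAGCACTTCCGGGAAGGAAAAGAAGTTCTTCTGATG
CPT1B A_70_P030106: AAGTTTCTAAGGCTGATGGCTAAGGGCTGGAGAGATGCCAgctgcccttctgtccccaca
CPT1B A_70_P030107: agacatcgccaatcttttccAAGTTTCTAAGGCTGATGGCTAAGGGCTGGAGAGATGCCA
SLC25A20 A_70_P029431: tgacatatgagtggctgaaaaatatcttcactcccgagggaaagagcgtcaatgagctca
The CPT1A probes shared 59 of 60 bases and were nearly the same probe, and the CPT1B probes shared 40. The longest run of bases common to a CPT1A and a CPT1B probe was 6, and 0 probes of other genes shared a run of at least 20 bases with any of the 5 on either strand. All 5 were well above background in all 30 animals. Values below are log2 normalized intensities of the brighter probe of each gene (A_70_P051281 for CPT1A, A_70_P030106 for CPT1B). They depend on the probe as well as on the RNA, so the level of one gene is not set against that of another.

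In untreated animals, transcripts of all 3 genes were lower at 2 weeks of age than in term fetuses. CPT1A was 4.52-fold lower, CPT1B 2.27-fold lower and SLC25A20 2.15-fold lower. All 3 passed an adjusted p of 0.05 in limma, in a comparison where 21.3% of the 12872 tested probes were called lower and 20.3% higher (41.6% in either direction). Among the probes, ordered from the largest fall, CPT1A came at place 14, CPT1B at place 173 and SLC25A20 at place 218. Among the 655 named genes tested they came at places 4, 20 and 23. In whole tissue, fewer cells of a type cannot be told apart from less RNA per cell.

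**Figure D1:**
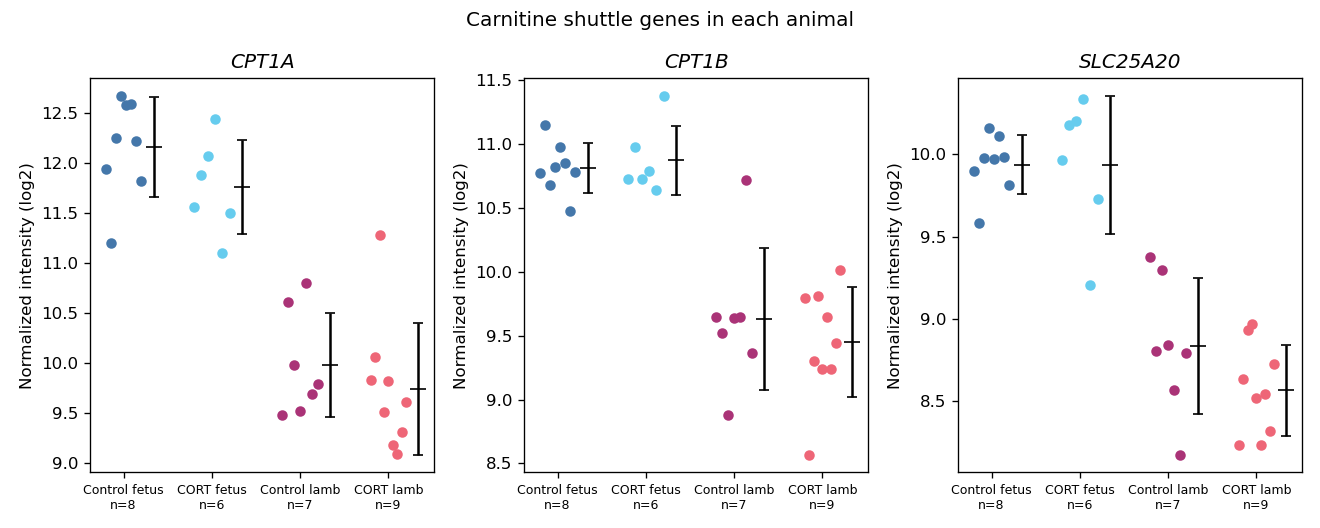
Log2 normalized intensity of CPT1A, CPT1B and SLC25A20 in each of the 30 animals (points) by group, with the group mean and SD (black). Most lambs lie below all fetuses in each panel; the lambs above the lowest fetus are CORT lamb 3 in CPT1A (11.28), Control lamb 6 in CPT1B (10.72) and 2 Control lambs in SLC25A20, above CORT fetus 5 (9.20).

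CPT1A in Control fetuses had a lowest value of 11.20, a median of 12.24 and a highest value of 12.67. In Control lambs the lowest was 9.48, the median 9.80 and the highest 10.80. The groups did not overlap, and the nearest pair was Control fetus 2, the lowest fetus, and Control lamb 5, the highest lamb. How many of all tested probes separate the ages without overlap was not counted, here or for the genes below. CPT1A fell by 2.18 on the log2 scale (SE 0.24, 95% interval -2.69 to -1.67, limma adjusted p = 2.96e-06). The exact two-sided permutation p was 0.000155, the smallest that 6435 splits allow. The second CPT1A probe, being almost identical in sequence, gave -2.22 (SE 0.23) and is no separate evidence. The first probe was spotted 5 times on each array, and the SD over these spots was 0.069 to 0.470 with a median of 0.231.

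CPT1B in Control fetuses ran from 10.47 through a median of 10.80 to 11.15. In Control lambs it ran from 8.88 through 9.64 to 10.72. Here 1 lamb of 7, Control lamb 6, stood above the lowest fetus, and the other Control lambs lay below all Control fetuses. CPT1B fell by 1.18 on the log2 scale (SE 0.19, 95% interval -1.59 to -0.78, limma adjusted p = 0.000121), with an exact two-sided permutation p of 0.000466. The second CPT1B probe gave -1.17 (SE 0.21).

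SLC25A20, which had 1 probe, ran in Control fetuses from 9.58 through a median of 9.98 to 10.16. In Control lambs it ran from 8.18 through 8.81 to 9.38, and the groups did not overlap. The fetus nearest to the lambs was again Control fetus 2. SLC25A20 fell by 1.101 on the log2 scale (SE 0.15, 95% interval -1.42 to -0.79, limma adjusted p = 2.10e-05). The exact two-sided permutation p was 0.000155, the smallest the design allows.

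**Figure D2:**
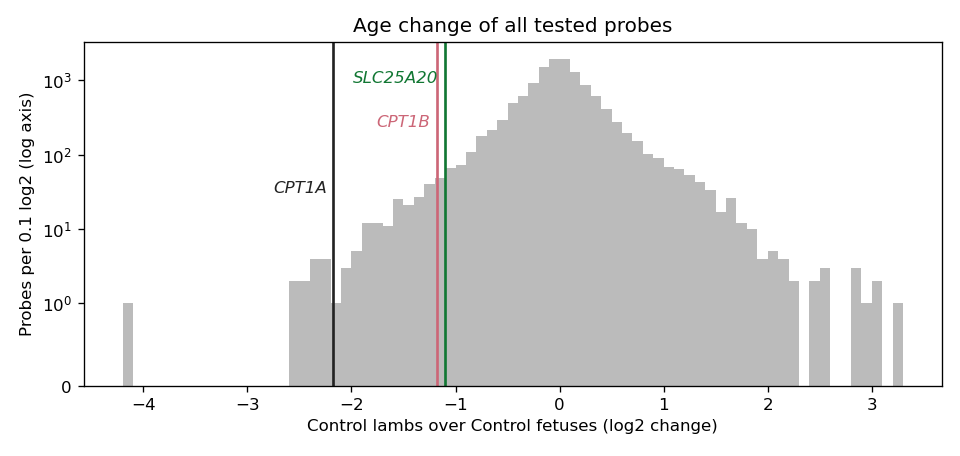
Number of tested probes per 0.1 log2 of change (log axis) against the change from Control fetuses to Control lambs. Vertical lines mark CPT1A at -2.18, CPT1B at -1.18 and SLC25A20 at -1.101, all on the lower side of the distribution.

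The arrays lay on 4 slides, fetuses on 2 of them and lambs on the others, so age was nested in slides. A shift between the slides of fetuses and those of lambs cannot be told apart from age, and a random block does not remove it. With slide as a random block the falls were -2.17 for CPT1A (adjusted p = 3.31e-05), -1.17 for CPT1B (adjusted p = 0.000821) and -1.11 for SLC25A20 (adjusted p = 9.93e-05). UCP1, too, fell by 4.19 on the log2 scale (SE 0.35, adjusted p = 1.68e-07). Its values in Control fetuses (13.75 to 15.56) did not overlap those in Control lambs (9.34 to 11.91). With the UCP1 level of each animal as a covariate, a setting chosen after the data had been seen, no carnitine shuttle gene passed. The age terms were then -1.54 for CPT1A (SE 0.78, adjusted p = 0.354), -1.73 for CPT1B (SE 0.62, adjusted p = 0.176) and -0.31 for SLC25A20 (SE 0.44, adjusted p = 0.784). Since UCP1 separated the ages completely, that fit cannot tell the level of UCP1 apart from age.

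The ages also differed among exposed animals, in arrays that do not enter the comparison above. Those arrays lay on the same slides, and the difference in maternal dose is a further limit. In CORT lambs compared to CORT fetuses, 19% of probes were called lower and 18.4% higher (37.4% in either direction), and all 3 genes were among them. CPT1A ran from 11.10 through 11.72 to 12.44 in CORT fetuses and from 9.10 through 9.61 to 11.28 in CORT lambs. A single lamb, CORT lamb 3, stood above the lowest CORT fetus. CPT1B ran from 10.64 through 10.76 to 11.37 in CORT fetuses and from 8.57 through 9.44 to 10.01 in CORT lambs, without overlap. SLC25A20 ran from 9.20 through 10.07 to 10.33 in CORT fetuses and from 8.23 through 8.54 to 8.97 in CORT lambs, again without overlap. The changes were -2.01 for CPT1A (SE 0.28, limma adjusted p = 4.49e-05), -1.42 for CPT1B (SE 0.18, adjusted p = 1.96e-05) and -1.37 for SLC25A20 (SE 0.16, adjusted p = 1.03e-05).

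Whether the genes changed by unequal amounts was asked with the difference between the log2 values of a pair of genes in the same animal, over 3 pairs and 5 comparisons, with p-values adjusted over the 15. CPT1A less SLC25A20 had a median of 2.26 in Control fetuses (1.62 to 2.61) and 1.01 in Control lambs (0.10 to 2.23). CPT1A fell further than SLC25A20 from Control fetuses to Control lambs, with a difference of -1.08 (SE 0.29, 95% interval -1.70 to -0.45, exact permutation p = 0.00264, adjusted p = 0.0396). This was the 1 difference of the 15 that passed. From CORT fetuses to CORT lambs the same pair changed by -0.65 (95% interval -1.17 to -0.12, exact permutation p = 0.022, adjusted p = 0.0887). Between CORT and Control fetuses it differed by -0.40 (95% interval -0.72 to -0.07, exact permutation p = 0.0236, adjusted p = 0.0887). Neither passed. CPT1A less CPT1B, the difference between the isoforms, had a median of 1.59 in Control fetuses (0.05 to 1.85) and 0.43 in Control lambs (-1.03 to 1.16). It changed by -0.996 (SE 0.37, 95% interval -1.80 to -0.20), which did not pass over the 15 (exact permutation p = 0.0185, adjusted p = 0.0887). CPT1B less SLC25A20 changed by -0.08, with a 95% interval of -0.82 to 0.66 (exact permutation adjusted p = 0.952). That interval leaves room for unequal change of either sign.

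**Figure D3:**
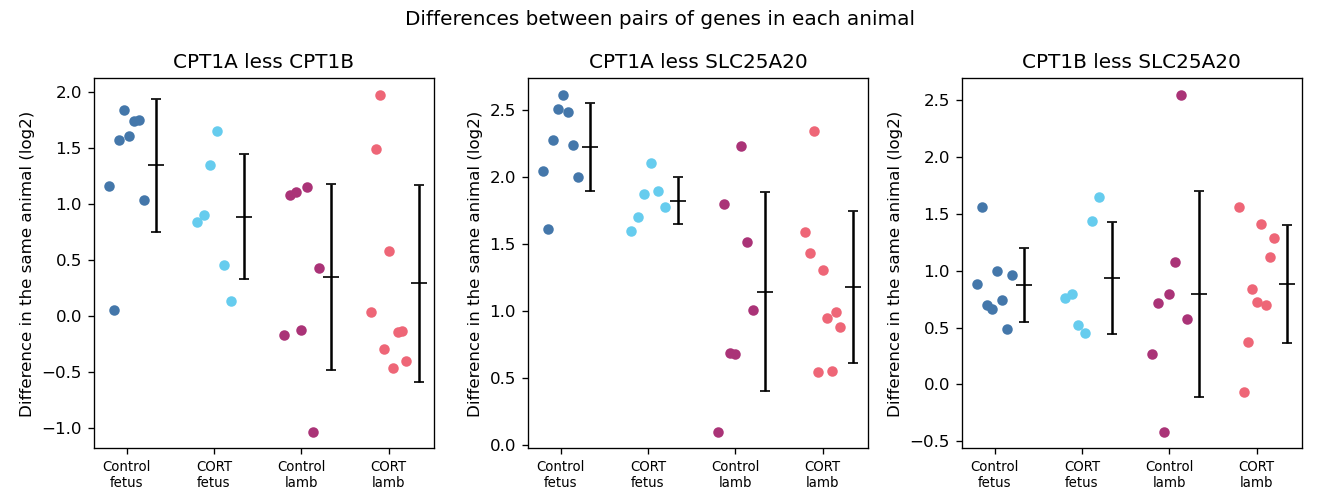
Difference between the log2 values of a pair of genes in the same animal, by group, with group mean and SD (black). The median of CPT1A less SLC25A20 was 2.26 in Control fetuses and 1.01 in Control lambs; a difference between probes has no meaning as a level, only its change between groups.

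Maternal cortisol was compared within each age. No carnitine shuttle gene passed in either, and limma called 0 of 12872 probes (0%) at the adjusted threshold in CORT lambs compared to Control lambs, against 458 (3.56%) at an unadjusted p under 0.05. In fetuses the counts were 0 (0%) and 305 (2.37%). In lambs the change was -0.24 for CPT1A (95% interval -0.82 to 0.34), -0.18 for CPT1B (-0.65 to 0.29) and -0.27 for SLC25A20 (-0.60 to 0.07), each with a limma adjusted p of 0.9997. The exact permutation p-values were 0.454, 0.484 and 0.14. CORT lamb 3 held the highest CPT1A of any lamb (11.28), and without it the change of CPT1A in lambs was -0.43. Without Control lamb 6 that of CPT1B in lambs was -0.0004.

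In fetuses, CPT1A changed by -0.40 (95% interval -0.91 to 0.11, exact permutation p = 0.155), and its groups overlapped widely. Under 75th percentile scaling, which moved the median of all probes by 0.27 in this comparison, it was -0.61 (SE 0.25, adjusted p = 0.254), and with muscle content as a covariate -0.52 (SE 0.19, adjusted p = 0.999). CPT1B changed by 0.06 (-0.19 to 0.31, exact permutation p = 0.655) and SLC25A20 by -0.003 (-0.33 to 0.32, exact permutation p = 0.986). The limma adjusted p was 0.9999 for each. Both treatments lay on every slide, and the slides did not give the same sign throughout. CPT1A in lambs differed by 0.27 on slide 3 and by -0.69 on slide 4, and in fetuses by -0.18 on slide 1 and by -0.62 on slide 2. CPT1B in lambs differed by -0.05 and -0.40 and in fetuses by -0.05 and 0.17. SLC25A20 in lambs differed by -0.39 and -0.04 and in fetuses by 0.21 and -0.22.

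The cortisol change in lambs less that in fetuses, which is a difference between 2 exposures, was 0.16 for CPT1A (95% interval -0.63 to 0.96), -0.24 for CPT1B (-0.80 to 0.32) and -0.27 for SLC25A20 (-0.74 to 0.20). The limma adjusted p was 0.9997 for each, and the exact permutation p-values, with treatment permuted within each age, were 0.697, 0.394 and 0.273. Single animals moved these values. Without Control lamb 6 that of CPT1B was -0.059, without CORT fetus 5 that of SLC25A20 was -0.41 and that of CPT1A 0.03, and without CORT lamb 3 that of CPT1A was -0.029. Over all probes limma called 0 (0%), and 264 (2.05%) had an unadjusted p under 0.05.

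**Figure D4:**
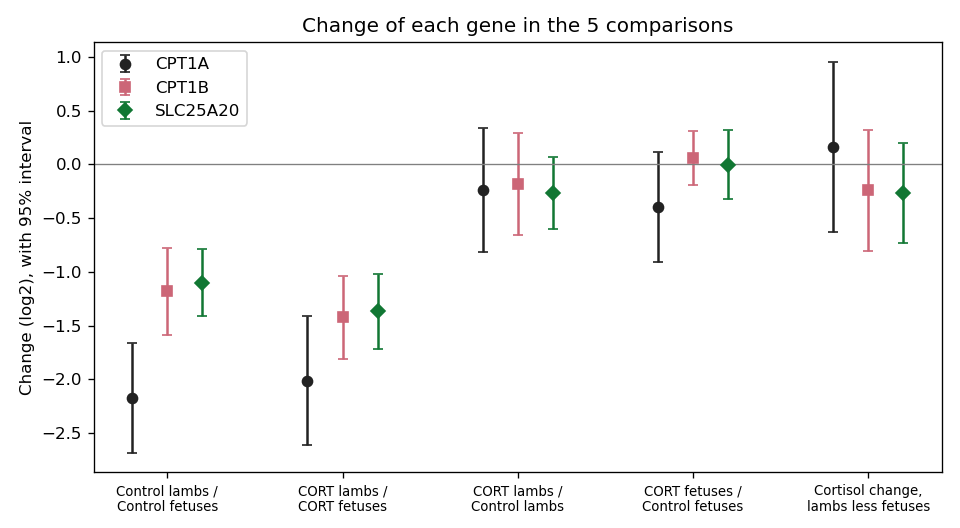
Log2 change (points) with its 95% interval (bars) of CPT1A, CPT1B and SLC25A20 in the 5 comparisons. The intervals of both age comparisons lie below 0, and those of the cortisol comparisons and of the difference between them include 0.

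Of 60 other genes listed for the pathway, 7 had a named and tested probe. The array gave no named probe for the other genes of carnitine handling (0 of 10), for mitochondrial beta-oxidation (0 of 17) or for ketone body synthesis (0 of 4), so the steps after the shuttle are not described here. In Control lambs compared to Control fetuses 4 of the 7 were called, 2 higher and 2 lower, near the 41.6% of all tested probes called in that comparison, with a median change of -0.15 against -0.01 over all tested probes. LPL, the lipase that releases fatty acids from circulating triglyceride, rose by 1.81 (SE 0.19, limma adjusted p = 2.39e-06), opposite in sign to the shuttle genes. PPARGC1A, a coactivator of mitochondrial and thermogenic genes, fell by 1.33 (SE 0.19, adjusted p = 3.15e-05). PPARA, a nuclear receptor for fatty acids that drives CPT1 genes in liver, fell by 0.21 (SE 0.08, adjusted p = 0.0369). PPARA lost that call in 9 of the 15 fits that left out 1 animal, in which its adjusted p ranged up to 0.0783, and under 75th percentile scaling (-0.09, adjusted p = 0.385), without background correction (adjusted p = 0.112), with slide as a random block (adjusted p = 0.0872) and with the replicate number as a block (adjusted p = 0.0963). NR3C1, the glucocorticoid receptor, rose by 0.90 (SE 0.07, adjusted p = 1.68e-07). ACACA, which makes malonyl-CoA, and PRKAA2, a kinase subunit that restrains it, changed by -0.15 (adjusted p = 0.601) and -0.08 (adjusted p = 0.754). PPARG changed by -0.42 (adjusted p = 0.0719), and without Control fetus 2 by -0.52 (adjusted p = 0.0155). In each cortisol comparison limma called 0 of the 7, also without adjustment at p under 0.05. The shares of all tested probes without adjustment were 3.56% in lambs, 2.37% in fetuses and 2.05% for the difference between them. With 7 genes, 0 is near those shares.

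Heart fat lies against muscle, so the genes were also set against muscle transcripts. Of 42 striated muscle genes listed, 3 had a named and tested probe. These were MB (myoglobin, of heart and oxidative muscle) and TNNC2 and MYLPF (of fast skeletal muscle). None of the 3 was called from Control fetuses to Control lambs with all animals. MB changed there by -0.48 (SE 0.81, adjusted p = 0.668), and by -0.38 without Control fetus 2. MYLPF changed by -0.54 (adjusted p = 0.727) with that animal and by 0.59 (SE 0.11, adjusted p = 0.000374) without it, so this animal set its sign and its call. In CORT lambs compared to CORT fetuses MYLPF was the 1 called, higher by 0.94. MB varied widely within groups, from 12.98 to 15.20 in Control fetuses, 9.61 to 16.89 in Control lambs and 11.12 to 15.81 in CORT lambs, and was 14.55 ± 0.83 (SD, n = 6) in CORT fetuses. Control fetus 2 stood apart, with TNNC2 at 17.20 and MYLPF at 18.24. It had the highest CPT1B of the Control fetuses and the lowest CPT1A and SLC25A20.

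Within the 16 lambs, CPT1B rose with muscle content, the mean log2 value of the 3 muscle genes (Pearson r = 0.80, permutation p = 0.00023, adjusted over 18 relations 0.00414; Spearman rho = 0.87, permutation p = 5e-05, adjusted 0.0009). It was 0.80 without the 2 animals farthest from the median, 0.74 and 0.84 on the separate slides, 0.87 in Control lambs and 0.81 in CORT lambs. With MB alone r was also 0.80 (adjusted permutation p = 0.00378), which is no separate evidence, since MB carried most of the spread of that mean. Among lambs MB ran from 9.61 to 16.89, TNNC2 from 6.84 to 10.17 and MYLPF only from 9.50 to 10.36. CORT lamb 9, with the highest CPT1B of the CORT lambs, had the highest TNNC2 and the lowest MYLPF of all lambs. CPT1B was not tested against TNNC2 or MYLPF alone. Control lamb 6, with the highest MB of all animals, was the lamb whose CPT1B reached the fetal range, and Control lamb 3, with the lowest MB, had the lowest CPT1B of its group.

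In the 14 fetuses the relation of CPT1B to muscle content had the same sign and did not pass (r = 0.49, permutation p = 0.0936, adjusted 0.281; rho = 0.55, permutation p = 0.0426, adjusted 0.153). It was 0.57 without the 2 farthest animals, which included Control fetus 2, and 0.83 and 0.71 on the separate slides. With MB alone it passed by Pearson's r (0.67, permutation p = 0.00629, adjusted 0.0377) and not by rank (rho = 0.54, permutation p = 0.0471, adjusted 0.156). It was 0.45 without CORT fetus 6 and Control fetus 3, so that relation rested in part on those animals.

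CPT1A and SLC25A20 had negative coefficients against muscle content at both ages, none past the adjusted threshold. For CPT1A r was -0.53 in fetuses (permutation p = 0.0176, adjusted 0.106) and -0.31 in lambs (permutation p = 0.25, adjusted 0.375), with rho -0.63 (permutation p = 0.0182, adjusted 0.0821) and -0.42 (permutation p = 0.109, adjusted 0.218). For SLC25A20 r was -0.44 in fetuses (permutation p = 0.0876, adjusted 0.281) and -0.34 in lambs (permutation p = 0.201, adjusted 0.362). Its rho was -0.68 (permutation p = 0.00969, adjusted 0.0581) and -0.23 (permutation p = 0.392, adjusted 0.563). Whether the isoforms differ in their relation to muscle content was not tested.

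**Figure D5:**
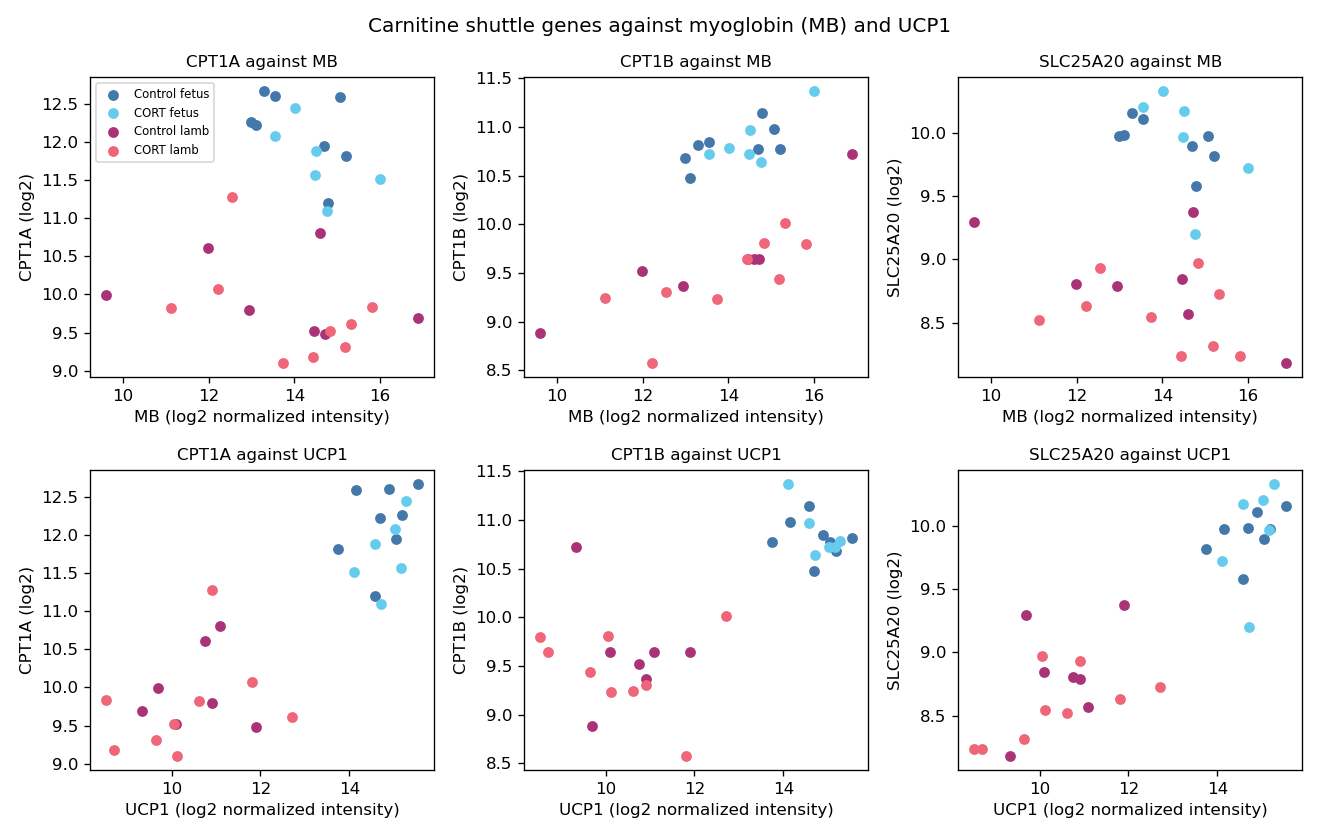
Log2 normalized intensity of each carnitine shuttle gene against MB (upper row) and UCP1 (lower row) in 30 animals, coloured by group. CPT1B rises with MB among lambs (r = 0.80), and the fetuses form a separate cloud with higher UCP1 in all lower panels.

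With muscle content as a covariate the age changes of Control animals were -2.29 for CPT1A (adjusted p = 3.03e-07), -1.103 for CPT1B (adjusted p = 7.63e-05) and -1.16 for SLC25A20 (adjusted p = 5.65e-06). All 3 were as large as without it within their errors. Control fetus 2 had a muscle content of 16.74, against 11.61 in the next highest Control animal, so it weighed heavily in that fit. The fit was not repeated without this animal or with MB alone. Muscle content as a covariate left the cortisol change of CPT1B in lambs at -0.27 (SE 0.13, adjusted p = 0.995).

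Against UCP1 within each age, r ran from -0.42 to 0.50 over the 3 genes and 2 ages, and 0 of these 6 relations passed after adjustment. The highest was SLC25A20 in lambs (r = 0.50, permutation p = 0.0488, adjusted 0.22; rho = 0.50, permutation p = 0.0519, adjusted 0.156). Between the genes, CPT1A and SLC25A20 rose together across fetuses (r = 0.79, permutation p = 0.00059, adjusted 0.00531; rho = 0.72, permutation p = 0.0048, adjusted 0.0432). That relation was 0.72 and 0.90 on the separate slides and 0.57 without CORT fetus 5 and Control fetus 2, the animals lowest in both genes. In lambs it was r = 0.21 (permutation p = 0.427, adjusted 0.494; rho = 0.20, permutation p = 0.464, adjusted 0.597). The other 4 relations between genes did not pass, with CPT1A against CPT1B at r = -0.24 in fetuses (permutation p = 0.407, adjusted 0.494) and -0.18 in lambs (permutation p = 0.481, adjusted 0.509).

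The named genes most like each member over the 30 animals, after group means were subtracted, were different genes for CPT1A and CPT1B. They are given as a description, from arrays that share normalization. For CPT1B they were SLC25A4 (r = 0.84), the adenine nucleotide translocase of heart and muscle, SLC25A11 (0.82), the mitochondrial oxoglutarate carrier, INHA (0.82), an inhibin subunit, PYGM (0.82), the glycogen phosphorylase of muscle, and MB (0.81). For CPT1A they were SLC4A4 (0.74), a bicarbonate cotransporter, SLIRP (0.74), a mitochondrial RNA-binding protein, SLC25A5 (0.62), another adenine nucleotide translocase, TBP (0.61) and PHF14 (0.60). For SLC25A20 they were TALDO1 (0.76), of the pentose phosphate pathway, SLC25A5 (0.74), ABHD5 (0.73), the coactivator of triglyceride lipase, B2M (0.68) and TLR2 (0.67). SLC25A5 was the 1 gene on both the CPT1A and the SLC25A20 list, and no gene stood on the CPT1B list and another. CPT1A with CPT1B had r = -0.22, CPT1A with SLC25A20 had 0.42 and CPT1B with SLC25A20 had -0.36.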

How the data were processed

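Per the file headers, the scanner files deposited for the 30 arrays give each spot a mean foreground intensity and a median local background, read with Agilent Feature Extraction 10.1.1.1. The authors also deposited a matrix of log2 values, background corrected and quantile normalized with limma; its lamb columns served as an alternative and 14 fetal columns were not used. The labels and the methods name different dyes and RNA amounts. The files hold 1 colour.

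Intensities were corrected with normexp (offset 50) in limma 3.58.1 (R 4.3.3) and, without control and outlier spots, quantile normalized over 30 arrays as log2 values. Probes at least 10% brighter than the 95th percentile of 77 negative controls on at least 6 arrays were tested (12872). Median foreground was 132 to 240 and median background 34 to 46, and 70.4% to 83.5% of spots were well above background. Before normalization the foreground was 172 to 240 on fetal arrays and 132 to 235 on lamb arrays. All lamb arrays but CORT lamb 7 and CORT lamb 9 were dimmer than all fetal arrays but Control fetus 1. The number of arrays limits the precision. A gene was represented by its brightest probe. Groups were compared with lmFit and eBayes on the compared groups alone, two-sided, with Benjamini-Hochberg adjustment over all tested probes, and single genes with exact permutation tests. Relations across animals used 100000 permutations (scipy and numpy in Python). Scripts were tested on simulated data.

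The members, gene lists and tests were chosen with earlier results of these data known. Text names all member probes, list genes past an adjusted p of 0.05 in Control animals across age or in a cortisol comparison (up to 4 a list), UCP1, MB and TNNC2, and the 5 named genes most like each member. ACACA, PRKAA2, PPARG, MYLPF and PLIN1, outside that rule, were named after their values were seen. Lists for adipocyte, brown adipocyte, endothelial, myeloid and erythroid genes were counted as marker checks. From Control fetuses to Control lambs, where 41.6% of all tested probes were called, 2 of 5 adipocyte genes were called higher (LPL and LEP), 2 of 2 brown adipocyte genes lower (UCP1 and PPARGC1A), 1 of 3 endothelial genes lower (FLT1), 2 of 4 myeloid genes higher (CD14 and FCER1G) and 0 of 2 erythroid genes. From CORT fetuses to CORT lambs (37.4% of probes called) the counts were 3 of 5 higher (LPL, LEP and PLIN1), 2 of 2 lower, 0 of 3, 1 of 4 higher (FCER1G) and 0 of 2. In each cortisol comparison 0 of the marker genes passed, and 0 of all tested probes. Replicate numbers were not taken to pair animals, since correlations of same-numbered animals ranged from -0.226 to 0.415. Where nothing says that samples came from separate ewes, p-values measure only the spread between these samples.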

Additional observations from a re-analysis of the deposited data

Results flagged for a closer look

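Among 12 groups of values searched (3 genes in 4 groups), 2 held an animal far from the rest, measured as its distance to the next animal over the whole spread of that group; chance gives about 1 in 20 groups. For CPT1A, CORT lamb 3 stood at 11.28 against a group median of 9.61, with a ratio of 0.555. For CPT1B, Control lamb 6 stood at 10.72 against a group median of 9.64, with a ratio of 0.584. Control lamb 6 also had the highest MB of the 30 animals (16.89).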

How the results depend on the processing

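The age falls of CPT1A, CPT1B and SLC25A20 kept their sign and their side of the threshold, in Control and in CORT animals, under every alternative planned for them, leave-one-out included. The exception was UCP1 as a covariate, added after the data were seen. It gave -1.54, -1.73 and -0.31 in Control animals, and -1.20 (adjusted p = 0.432), -1.87 (adjusted p = 0.0532) and -0.71 (adjusted p = 0.379) in CORT animals, none past the threshold. The other pathway genes called went from 4 to 0 in both, and ranged from 3 to 5 over the other settings and over leave-one-out fits in CORT animals and from 3 to 4 over those in Control animals. Probes called from Control fetuses to Control lambs went with UCP1 as a covariate from 2609 higher and 2743 lower to 91 and 114, and in CORT animals from 2367 and 2447 to 54 and 40. UCP1 did not overlap between the ages. Scaling to the 75th percentile moved the median of all probes by 0.14 from Control fetuses to Control lambs (4780 higher and 2236 lower) and by -0.26 in CORT animals (1048 higher and 1278 lower), and the members' falls there were -2.24, -1.24 and -1.13, and -1.88, -1.31 and -1.32. It moved that of the cortisol comparison in fetuses by 0.27 and of the difference between ages by -0.26. Under this scaling CORT fetus 4 went from 12.44 to 11.71 in CPT1A and from 10.79 to 10.32 in CPT1B. CORT fetus 6 went from 11.51 to 11.08 and from 11.37 to 10.96. In every other fetus both genes were higher under this scaling than in the main setting.

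The small cortisol changes in fetuses reversed sign without being called, and the cause was not tested. CPT1B was -0.046 under cyclic loess, -0.11 under 75th percentile scaling and -0.0036 with the replicate number as a block, and SLC25A20 was 0.041 with array weights. Under the block 1 probe was called in fetuses, and no other call on the members changed. CPT1A less SLC25A20 in fetuses passed at -0.52 (exact permutation adjusted p = 0.05, rounded) under 75th percentile scaling, CPT1B less SLC25A20 there was -0.027, and in CORT animals across age 0.017. CPT1B against muscle content in fetuses passed with MB alone (r = 0.67). Leaving out each animal in turn, the cortisol change in fetuses ranged from -0.083 to 0.14 for SLC25A20 (0.14 without CORT fetus 5) and from -0.042 to 0.11 for CPT1B (-0.042 without CORT fetus 6), and the difference between ages for CPT1A from -0.029 (without CORT lamb 3) to 0.30, for CPT1B from -0.37 to -0.059 (without Control lamb 6) and for SLC25A20 from -0.41 (without CORT fetus 5) to -0.18. Under 75th percentile scaling that difference was 0.35 for CPT1A and -0.068 for CPT1B, and with array weights 0.037 for CPT1A. The change of CPT1A in fetuses ranged from -0.54 to -0.27 (without CORT fetus 5). The 7 reversals of SLC25A20 lay within that range. Cortisol changes in lambs ranged from -0.43 (without CORT lamb 3) to -0.10 for CPT1A and from -0.31 to -0.0004 (without Control lamb 6) for CPT1B. For the list without fast-muscle genes MB was the 1 gene left, so that alternative was the same as MB alone.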
